A study of Homo sapiens with 18 samples.

Results

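Double-stranded RNA (dsRNA) sensors and their signalling adaptors were followed in 2 human cell lines after transfection of microRNA mimics. The 10 genes were taken by symbol from the deposited expression tables, whatever their values: the RIG-I-like receptors DDX58 (also called RIGI), IFIH1 and DHX58, the other sensors and the editing enzyme TLR3, EIF2AK2, ADAR and ZBP1, and the adaptor, kinase and transcription factor MAVS, TBK1 and IRF3. Of these 10 genes 9 had a row in both tables, among 15358 genes listed in MCF10A and 15257 in hTERT RPE-1, and ZBP1 was not analysed here. All 9 passed the filter on low values in both lines, DHX58 in MCF10A only through the libraries with a mimic.

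Cells recognise dsRNA in the cytosol with RIG-I and MDA5, helicases that pass the signal to the mitochondrial adaptor MAVS, and in endosomes with TLR3. MAVS and the TLR3 adaptor activate the kinase TBK1, which phosphorylates IRF3, and IRF3 then drives type I and type III interferon genes. Interferon in turn raises the transcription of many of the sensors, while PKR, the product of EIF2AK2, stops translation initiation on binding dsRNA and ADAR edits adenosines in self RNA so that it is sensed less.

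RNAseq of polyadenylated RNA was conducted on MCF10A, a near-normal human breast epithelial line, and on hTERT RPE-1, which stems from human retinal pigment epithelium, is near-normal and was immortalised with telomerase. Each line was transfected for 72 h with 30 nM of siNT, a non-targeting siRNA control, of the hsa-miR-28-5p mimic (miR-28) or of the hsa-miR-708-5p mimic (miR-708), a mimic being a synthetic duplex that acts as the mature microRNA. There were 3 biological replicates per group, with the numbers 7, 8 and 9 for MCF10A, the numbers 1, 2 and 3 for hTERT RPE-1 and 18 libraries in all. All 18 libraries received a short RNA duplex, siNT included, and untransfected cells were not analysed here, so the siNT level is a level after transfection.

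The deposited values, called normalised values here, are estimated reads per gene scaled with 1 size factor for each library. Depth, taken from the step between low values, was 19.4–31.7 M reads per MCF10A library and 23.8–40.4 M per hTERT RPE-1 library, and 3 reads came to a normalised value of 2.49–4.02 and 2.35–4.40. The breast epithelial markers summed to 7600–8370 ppm of all values of the library in the siNT libraries of MCF10A (5890–6340 with miR-28, 5140–5860 with miR-708) and to 28.8–35.3 ppm in those of hTERT RPE-1, where 3 of the 10 were listed. In bulk RNA fewer cells of a type and less RNA per cell cannot be told apart, and the part of the lower breast marker sums in the MCF10A results was not tested. The summed retinal pigment epithelial markers did not set the lines apart, at 76.3–80.0 ppm for MCF10A siNT and 79.2–107 ppm for hTERT RPE-1 siNT. Single markers did, in both directions. With siNT MITF stood at 6.49 ppm in MCF10A and 53.7 ppm in hTERT RPE-1. LRAT stood at 42.7 and 0.0983 ppm and BEST1 at 28.1 and 4.64 ppm. OTX2 was listed in hTERT RPE-1 only, and the defining gene RPE65 in MCF10A only. The summed mesenchymal markers set the lines apart, at 1690–2510 and 35000–51500 ppm. Most of that sum in hTERT RPE-1 is FN1, at 674 and 37500 ppm. S100A6 alone of this list went the other way, at 1000 and 210 ppm. The library of miR-28 replicate 1 in hTERT RPE-1 stands apart, with 15.1% of its values on ribosomal RNA genes against 4.23–7.2% in the other 8 libraries of the line, and it has the lowest sensor values of the 6 libraries with a mimic. Its effect on the miR-28 results is given beside them, and the part of its ribosomal RNA share in them was not tested.

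The sequences that bear on these genes are those of a mimic, of its matches in 3′ UTRs and of interferon-type motifs at promoters. The RefSeq sequence of the mature mimic hsa-miR-708-5p (GRCh38.p14, chr11:79402077-79402099, minus strand) is shown with the seed, bases 2 to 8, in capitals; hsa-miR-28-5p, a member of the same family with the same seed, is named only.
hsa-miR-708-5p: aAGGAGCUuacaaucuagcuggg
The letters AGCTCCT, which pair with this seed and so with that of both mimics, or GCTCCTA were searched on the sense strand of the 3′ UTRs of the 10 genes in GENCODE 44, where 18.7% of 13632 tested genes with such a UTR hold at least 1 of them. They were found once in MAVS (hg38 chr20:3866791-3866817, plus strand, base 654 of a 3′ UTR of 9971 bases) and once in EIF2AK2 (chr2:37102172-37102198, minus strand, base 5085 of 8063), and in none of the other 8 genes. The shorter GCTCCT alone was found once each in DHX58, ADAR and IRF3 and once more in EIF2AK2. The longer matches are in capitals.
MAVS: agacctgtggAGCTCCTctccagcctc
EIF2AK2: gtacgatcacAGCTCCTtgtaacctcg
A match is a string of letters and not a measured site, and the values of both genes are given below.

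Promoter windows of 300 bases around the RefSeq start site were given for 7 of the 10 genes, DDX58, IFIH1, TLR3, EIF2AK2, ADAR, MAVS and TBK1. They were searched on both strands for the core of the interferon-stimulated response element (ISRE), GAAANNGAAA, which 3.57% of 34796 such windows hold, and for the interferon gamma activated site (GAS), TTCNNNGAA, which 7.67% hold. The ISRE core was found in IFIH1, TLR3 and EIF2AK2, and the GAS motif in TLR3. In IFIH1 a pair of overlapping ISRE matches begins 159 bases before the start site (chr2:162318821-162318850, minus strand) and a further match begins 21 bases before it (chr2:162318689-162318712); in TLR3 (chr4:186069145-186069168, plus strand) and EIF2AK2 (chr2:37156970-37156993, minus strand) the match crosses the start site. Capitals mark the motif, and no ISRE match overlaps a GAS match.
IFIH1, upstream: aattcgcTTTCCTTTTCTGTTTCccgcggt
IFIH1, near the start: gagaatcGAAACAGAAAccaaagt
TLR3: gctttacTTTCACTTTCgagagtg
EIF2AK2: ccaagggGAAAACGAAActgagaa
The GAS matches of TLR3 begin 178 and 50 bases before its start site. The letters of neither motif are in these windows of DDX58, ADAR, MAVS and TBK1.

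**Figure D1:**
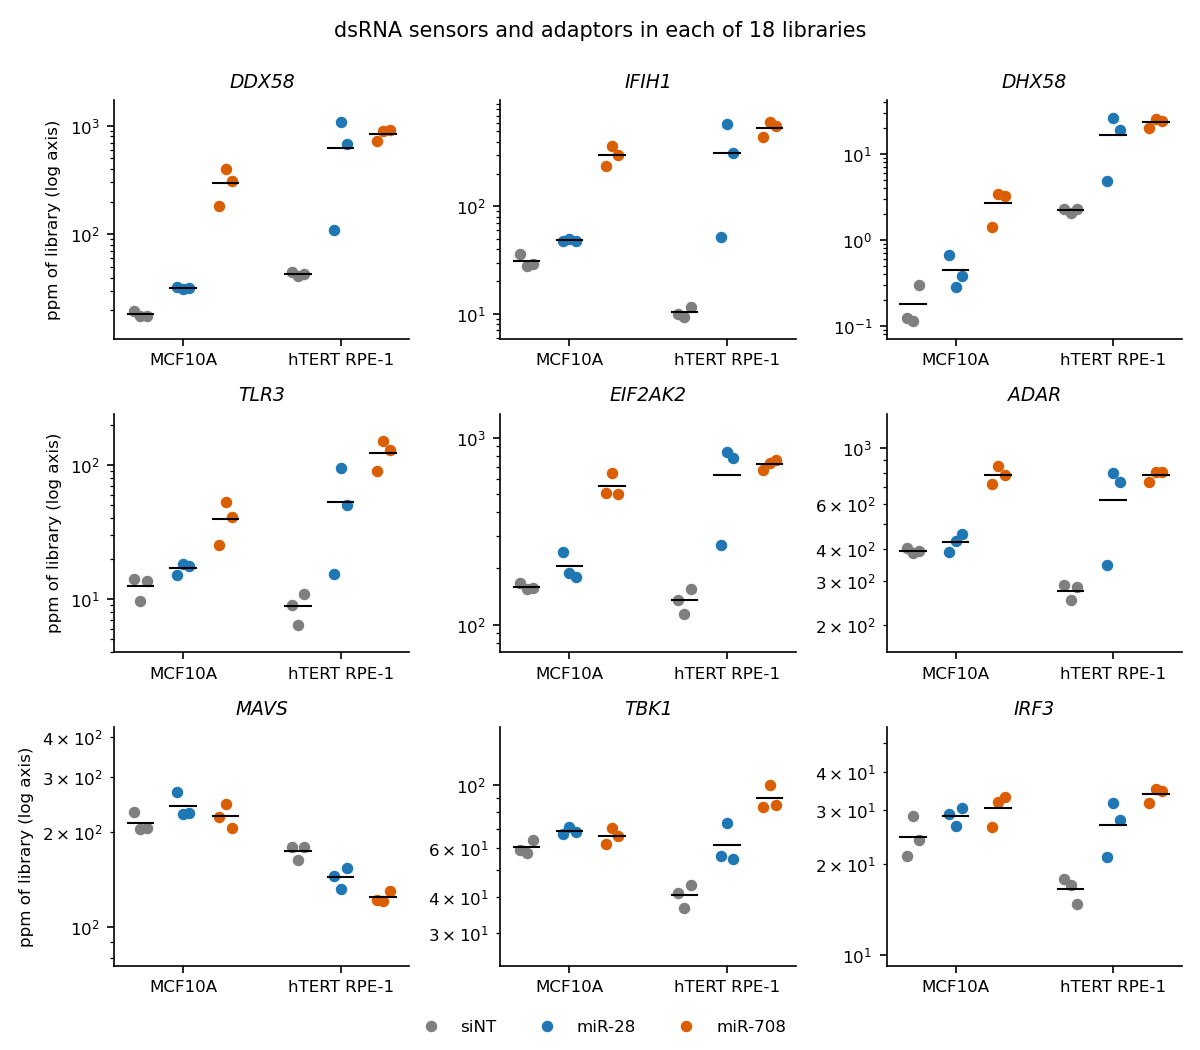
Level of the 9 listed genes in each of the 18 libraries, as ppm of the summed values of the library on a log axis that differs between panels; points are libraries and bars are means of 3. DDX58, IFIH1, DHX58, TLR3, EIF2AK2 and ADAR sit above siNT with miR-708 in both lines, and MAVS sits below siNT with both mimics in hTERT RPE-1 (the other 8 do not).

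The siNT libraries give the level of each line 72 h after a control duplex. The lines differed most in the RIG-I-like receptors. DHX58, whose product LGP2 regulates the other receptors, stood at 0.178 ppm ± 0.104 (SD, n = 3) in MCF10A and 2.21 ppm ± 0.14 in hTERT RPE-1, a ratio of 12.4. Its MCF10A level rests on 3, 3 and 9 reads in the siNT libraries, so that 2 of them are at the limit of 3 reads. DDX58 was also higher in hTERT RPE-1, at 43.2 ppm ± 1.8 against 18.3 ± 1.3, a ratio of 2.36. IFIH1, which encodes MDA5, went the other way, at 10.4 ppm ± 1.2 in hTERT RPE-1 and 31.1 ± 4.6 in MCF10A, a ratio of 0.333. The siNT libraries of the lines do not overlap for these 3 genes. The tables were made separately, so these ratios carry no test.

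For the other 6 listed genes the hTERT RPE-1 mean was below the MCF10A mean, at ratios of 0.674 (IRF3) to 0.846 (EIF2AK2). ADAR stood at 394 ppm ± 9.7 in MCF10A and 274 ± 20 in hTERT RPE-1, and MAVS at 214 ± 15 and 174 ± 9.1. TBK1 stood at 60.1 ppm ± 3.4 and 40.8 ± 3.8, and IRF3 at 24.5 ± 3.8 and 16.5 ± 1.6. For TLR3, at 12.5 ppm ± 2.4 and 8.78 ± 2.3, the siNT libraries of the lines overlap, and for the other 5 they do not.

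Compared per length of the annotated transcript, the editing enzyme led with siNT, PKR stood among the adaptor genes, and the RIG-I-like receptors and TLR3 were lowest. In MCF10A the order in ppm per kb was ADAR (59.6), TBK1 (19.9), MAVS (18.3), EIF2AK2 (16.0), IRF3 (15.4), IFIH1 (8.68), DDX58 (3.96), TLR3 (2.07) and DHX58 (0.069). TBK1 and MAVS overlap in that order, as does IRF3 with MAVS and EIF2AK2. In hTERT RPE-1 the order was ADAR (41.5), MAVS (14.8), EIF2AK2 (13.6), TBK1 (13.5), IRF3 (10.4), DDX58 (9.34), IFIH1 (2.89), TLR3 (1.46) and DHX58 (0.852). There MAVS, EIF2AK2 and TBK1 overlap, and so do IRF3 and DDX58. IFIH1 was therefore above DDX58 per kb in MCF10A and below it in hTERT RPE-1, with no overlap of libraries in either line.

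Each mimic was then compared with siNT within each line, with limma on log2(value + 1) over all tested genes, a gene being called at a Benjamini-Hochberg adjusted p below 0.05. In MCF10A, 2 of the 9 genes were called higher with miR-28 and none lower, beside 10.7% and 12% of 14726 genes. With miR-708, 6 were called higher and none lower, beside 15.5% and 17.3%; DHX58 is among the 6 and entered the test in this line only because it was high with a mimic. In hTERT RPE-1, 8 were called higher and 1 lower with miR-28, beside 23.3% and 23.5% of 14527 genes, and 8 higher and 1 lower with miR-708, beside 30.9% and 31.2%. The median log2 change of the 9 genes with miR-28 and miR-708 was 0.24 and 1.48 in MCF10A, then 1.97 and 2.11 for hTERT RPE-1, and that of all genes lay between -0.01 and 0.01. Scaling by library totals in place of the size factors moved the median of all genes to 0.12 and 0.14 in MCF10A, then to 0.09 and 0.32 in hTERT RPE-1. It also moved the share of called genes that were higher from 47.1% to 66.2% (miR-28) and 47.3% to 67.6% (miR-708) in MCF10A and from 49.7% to 71.9% with miR-708 in hTERT RPE-1, and left the counts of the 9 genes as they were.

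**Figure D2:**
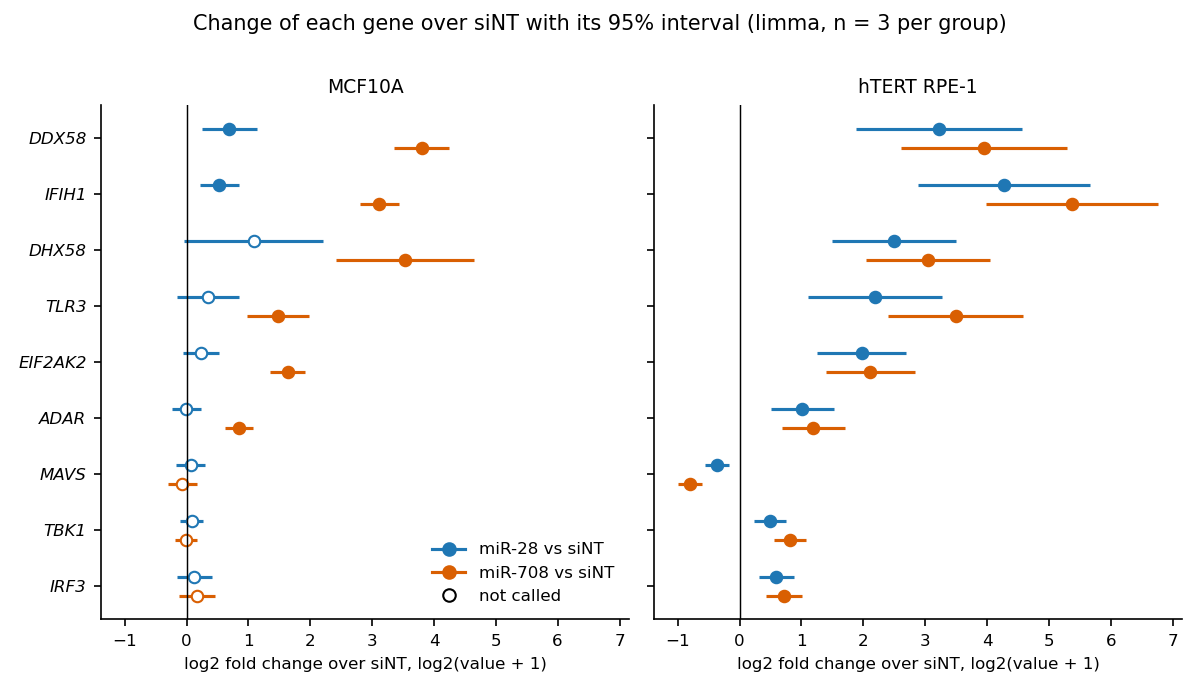
Change of each gene over siNT on the log2(value + 1) scale, with its 95% interval from limma (3 libraries per group); filled points passed an adjusted p of 0.05 and open points did not. In MCF10A MAVS, TBK1 and IRF3 sit near 0 and the miR-28 points of the other 6 lie well left of their miR-708 points, while in hTERT RPE-1 the intervals of the mimics overlap for every gene but MAVS.

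DDX58 gave normalised values of 573, 504 and 483 with siNT in MCF10A, 853, 818 and 846 with miR-28 and 4851, 9989 and 7819 with miR-708. The 3 groups do not overlap, and miR-708 stands far above the other two. The log2 change was 0.69 ± 0.20 (SE) with miR-28 (adjusted p = 0.0307) and 3.8 ± 0.20 with miR-708 (adjusted p = 6.36e-07). The hTERT RPE-1 values were 1572, 1536 and 1507 with siNT, 3839, 35156 and 22054 with miR-28 and 20533, 24803 and 26459 with miR-708. Every library with a mimic is above every siNT library, and miR-28 replicate 1 is well below the other 5. The log2 change was 3.22 ± 0.61 with miR-28 (adjusted p = 0.00156) and 3.95 ± 0.61 with miR-708 (adjusted p = 2.31e-04). Without miR-28 replicate 1 the miR-28 change was 4.18 (adjusted p = 3.73e-08).

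IFIH1 values in MCF10A were 1051, 787 and 809 with siNT, 1230, 1309 and 1257 with miR-28 and 6300, 9138 and 7651 with miR-708. The order of the groups is that of DDX58 and they do not overlap. IFIH1 rose by 0.53 ± 0.14 on the log2 scale with miR-28 (adjusted p = 0.0223) and by 3.12 ± 0.14 with miR-708 (adjusted p = 2.39e-07). The miR-28 calls of DDX58 and IFIH1 are near the threshold: without siNT replicate 8 the adjusted p were 0.0825 and 0.0815, without siNT replicate 9 they were 0.0937 and 0.0805, without miR-28 replicate 8 they were 0.0739 and 0.0736 and without miR-28 replicate 9 they were 0.0744 and 0.0562, while without miR-28 replicate 7 only that of DDX58 was lost (0.0600). In the siNT cultures of hTERT RPE-1 IFIH1 was low, at 349, 348 and 408 with siNT, and it reached 1842, 19104 and 10322 with miR-28 and 12671, 17022 and 16367 with miR-708. These are the largest changes among the 9 genes, 4.28 ± 0.63 with miR-28 (adjusted p = 3.65e-04) and 5.37 ± 0.63 with miR-708 (adjusted p = 3.70e-05), or 41.4-fold for miR-708. Without miR-28 replicate 1 the miR-28 change was 5.25.

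DHX58 is the receptor without a signalling domain of its own. With siNT in MCF10A its values were 3.59, 3.21 and 8.22, with miR-28 17.4, 7.46 and 9.86, and with miR-708 36.7, 87.1 and 82.1. The siNT and miR-28 libraries overlap, and the change with miR-28 did not pass the test (1.08 ± 0.51, adjusted p = 0.147). As it passed the filter on low values through those libraries, its miR-708 change of 3.53 ± 0.51 is given with the adjusted p of a fit without any filter, 4.29e-04, and by reads alone, 221 against 15, the ratio was 12.8 with an exact 95% interval of 7.60 to 23.3 that covers counting error only. The siNT libraries of hTERT RPE-1 gave 80.3, 76.0 and 79.2, those with miR-28 170, 861 and 610 and those with miR-708 566, 713 and 704. Both changes passed, at 2.5 ± 0.45 for miR-28 (adjusted p = 0.00126) and 3.05 ± 0.45 for miR-708 (adjusted p = 1.83e-04), and the first was 3.19 without miR-28 replicate 1.

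TLR3, the endosomal sensor, had MCF10A values of 406, 276 and 377.9 with siNT, 391, 482 and 467 with miR-28 and 671, 1340 and 1034 with miR-708. Only miR-708 is clear of siNT in this line, with a change of 1.48 ± 0.23 (adjusted p = 7.40e-04), where miR-28 gave 0.35 ± 0.23 (adjusted p = 0.288). In hTERT RPE-1 the values were 313, 237 and 383 with siNT, 542, 3095 and 1643 with miR-28 and 2582, 4219 and 3749 with miR-708. Neither mimic overlaps siNT there, and the changes were 2.20 ± 0.49 (adjusted p = 0.00423; 2.88 without miR-28 replicate 1) and 3.49 ± 0.49 (adjusted p = 1.27e-04). From the lower siNT mean of the lines, TLR3 thus reached the higher mean with both mimics in hTERT RPE-1, at 53.4 and 123.4 ppm against 17 and 39.8 ppm in MCF10A. With miR-28 the libraries of the lines overlap, since replicate 1 of hTERT RPE-1 stood at 15.36 ppm and MCF10A at 15.05–18.33 ppm.

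EIF2AK2, which encodes the kinase PKR, was abundant already with siNT. Its MCF10A values were 4820, 4445 and 4328 with siNT, 6393, 4992 and 4770 with miR-28 and 13314, 16382 and 12720 with miR-708. It rose with miR-708 by 1.63 ± 0.13 (adjusted p = 1.36e-05), and the miR-28 change of 0.24 ± 0.13 did not pass (adjusted p = 0.212). In hTERT RPE-1 the values were 4731, 4235 and 5443, then 9410, 27543 and 25536 with miR-28 and 19357, 20530 and 22209 with miR-708. Replicates 2 and 3 of miR-28 are above all miR-708 libraries and replicate 1 is below them, so the means of the mimics nearly coincide, with changes of 1.97 ± 0.32 (adjusted p = 7.11e-04; 2.47 without replicate 1) and 2.11 ± 0.32 (adjusted p = 2.32e-04). The 3′ UTR match to the shared seed of the mimics in EIF2AK2 stands in a transcript whose level rose with miR-708 in both lines and with miR-28 in hTERT RPE-1. The part of the match in these levels was not tested. In the annotation the exons of EIF2AK2 share 35 bases with GPATCH11 on the opposite strand, and the strand setting of the counting is not given in the sources used here.

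ADAR, which edits adenosine to inosine in dsRNA, changed less in size than the sensors. In MCF10A it gave 11689, 10964 and 10858 with siNT, 10106, 11301 and 12088 with miR-28 and 19037, 21536 and 19775 with miR-708. The miR-28 libraries straddle those of siNT (log2 change -0.0039 ± 0.10, 95% interval -0.23 to 0.23), while miR-708 raised ADAR by 0.85 ± 0.10 (adjusted p = 2.05e-04). Its hTERT RPE-1 values were 10079, 9303 and 9853 with siNT, 12157, 26054 and 23964 with miR-28 and 21018, 22540 and 23310 with miR-708. Both mimics raised it, by 1.01 ± 0.23 (adjusted p = 0.00464; 1.36 without miR-28 replicate 1) and 1.19 ± 0.23 (adjusted p = 0.00108). The gene rows do not separate the interferon-inducible isoform of ADAR from the constitutive one.

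**Figure D3:**
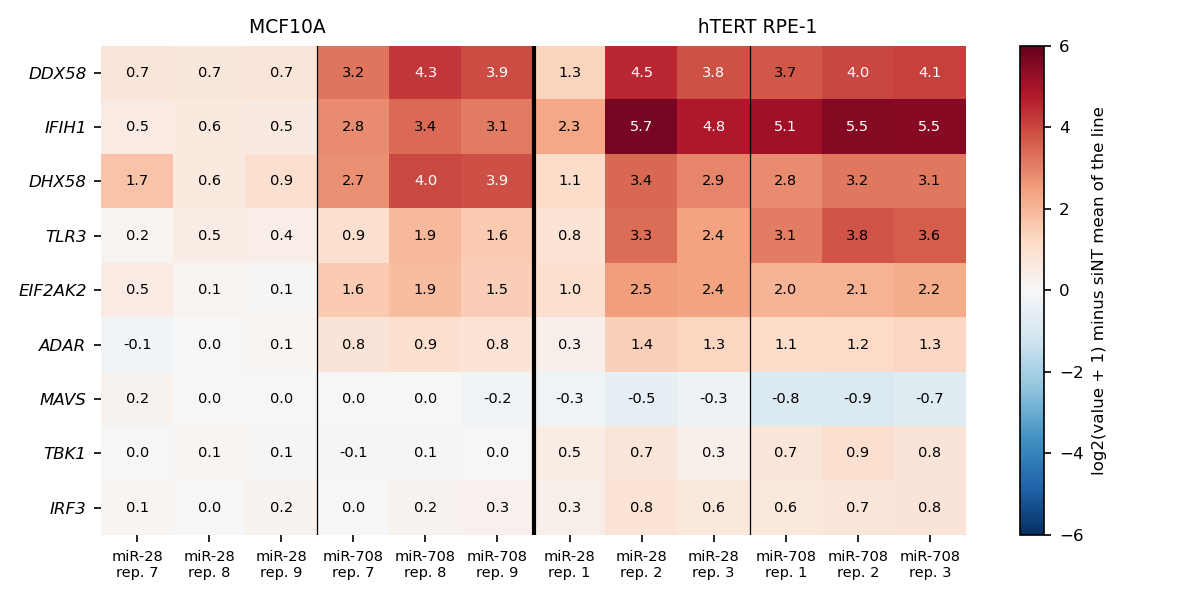
Change of each gene in each library with a mimic, as log2(value + 1) minus the siNT mean of the line; red is above siNT and blue below. Replicate 1 of miR-28 in hTERT RPE-1 is pale in the sensor rows beside replicates 2 and 3, at 1.3 against 4.5 and 3.8 for DDX58, and the 3 lower rows are near 0 in every MCF10A library.

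The adaptor, the kinase and the transcription factor downstream of the sensors did not follow them in MCF10A. MAVS, the mitochondrial adaptor, gave 6687, 5838 and 5697 with siNT, 7002, 5997 and 6063 with miR-28 and 5919, 6199 and 5234 with miR-708. TBK1 gave 1697, 1642 and 1765, then 1742, 1863 and 1804, and 1633, 1773 and 1668. IRF3 gave 611, 817 and 657, then 757, 700 and 802, and 696, 803 and 835. All 3 groups overlap in each of these genes. The intervals of the miR-708 change were -0.31 to 0.16 for MAVS, -0.19 to 0.17 for TBK1 and -0.12 to 0.46 for IRF3, so that a change as large as that of ADAR lies outside them.

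These 3 genes did change in hTERT RPE-1, and not in 1 direction. MAVS went from 6240, 6056 and 6262 with siNT to 5136, 4345 and 5006 with miR-28 and 3501, 3375 and 3785 with miR-708. The 3 groups do not overlap, and MAVS fell by 0.36 ± 0.09 with miR-28 (adjusted p = 0.00619; -0.41 without replicate 1) and by 0.80 ± 0.09 with miR-708 (adjusted p = 2.13e-05). Its 3′ UTR holds the match to the shared seed at base 654, and the same match stands in the transcript in MCF10A, where neither mimic changed its level past the test. The part of the match in the lower level was not tested.

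TBK1, the kinase that MAVS activates, rose in hTERT RPE-1 from 1449, 1359 and 1541 with siNT to 1977, 2411 and 1779 with miR-28 and 2400, 2793 and 2466 with miR-708. Neither mimic overlaps siNT, and the changes were 0.49 ± 0.12 (adjusted p = 0.00546; 0.52 without miR-28 replicate 1) and 0.81 ± 0.12 (adjusted p = 1.38e-04). IRF3 rose from 619, 632 and 516 to 743, 1035 and 905 with miR-28 and 909, 980 and 1008 with miR-708. Its changes were 0.59 ± 0.13 (adjusted p = 0.00381; 0.72 without miR-28 replicate 1) and 0.72 ± 0.13 (adjusted p = 7.36e-04), again without overlap. IRF3 exons share 227 bases with BCL2L12 on the opposite strand, a gene listed in both tables, so that without a stated strand setting their reads may be shared.

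The mimics were next compared with each other. In MCF10A, 6 of the 9 genes were higher with miR-708 than with miR-28 and none was lower, beside 1.28% and 0.265% of all genes tested. The difference was 3.11 ± 0.20 for DDX58 (adjusted p = 4.80e-06), 2.59 ± 0.14 for IFIH1 (adjusted p = 1.30e-06) and 1.4 ± 0.13 for EIF2AK2 (adjusted p = 9.65e-05). It was 0.85 ± 0.10 for ADAR (adjusted p = 9.17e-04), and DHX58 and TLR3 passed less clearly, at 2.45 ± 0.51 (adjusted p = 0.0375, and 0.0321 without the filter on low values) and 1.13 ± 0.23 (adjusted p = 0.0317). Both of these calls are lost without either of replicates 8 and 9 of miR-28 or of miR-708 (adjusted p of 0.114 to 0.184 for DHX58 and 0.0861 to 0.150 for TLR3), and that of TLR3 also without miR-28 replicate 7 (0.0999). Without a trend both calls are lost as well (0.0541 and 0.115), and TLR3 with only these 2 groups in the fit (0.0540). MAVS, TBK1 and IRF3 differed by -0.14, -0.09 and 0.05, with intervals between -0.37 and 0.33.

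In hTERT RPE-1 fewer of the 9 genes were called between the mimics. The difference was smaller in size than in MCF10A for DDX58, IFIH1, DHX58, EIF2AK2 and ADAR. It was larger for TLR3, MAVS, TBK1 and IRF3, and this contrast between the lines was not tested. None of the 9 genes was called higher with miR-708 and 1, MAVS, was called lower, beside 9.88% and 11.4% of all genes. MAVS was lower by 0.44 ± 0.09 on the log2 scale with miR-708 (-0.44, adjusted p = 0.00646), and with scaling by library totals, which moved the median of all genes to 0.23 and the share of called genes that were higher from 46.5% to 84.8%, the difference was -0.21 (adjusted p = 0.0960), while TLR3 (1.53, adjusted p = 0.0407) and TBK1 (0.55, adjusted p = 0.00982) were then called higher. TLR3 differed by 1.30 ± 0.49 (adjusted p = 0.0856), which passed with the replicate number as a block (adjusted p = 0.0485), a fit in which the numbers pair these libraries. The intervals of the other sensors are wide, -0.61 to 2.06 for DDX58 and -0.30 to 2.49 for IFIH1. They rest on miR-28 replicate 1: without it DDX58 differed by -0.23, EIF2AK2 by -0.36 and ADAR by -0.17, none of them past the threshold. Without miR-28 replicate 2, the highest of the miR-28 libraries in all sensors, IFIH1 (1.80, adjusted p = 0.0251), TLR3 (1.87, adjusted p = 0.00596) and TBK1 (0.44, adjusted p = 0.00971) were called higher with miR-708.

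The question whether the lines respond alike was put to the difference of their log2 changes over the 13339 genes tested in both. For miR-28 the change was larger in hTERT RPE-1 in 6 of the 9 genes and smaller in 1, beside 12.1% and 11.3% of all genes. IFIH1 differed by 3.75 ± 0.65 (adjusted p = 0.00188) and DDX58 by 2.53 ± 0.64 (adjusted p = 0.0128). TLR3, EIF2AK2, ADAR and TBK1 followed with 1.84, 1.74, 1.02 and 0.41, and MAVS with -0.43 (adjusted p = 0.0291). Without miR-28 replicate 1 of hTERT RPE-1 the differences were 4.72 for IFIH1, 3.48 for DDX58, 2.53 for TLR3, 2.23 for EIF2AK2, 1.36 for ADAR, 0.43 for TBK1 and -0.47 for MAVS, each past the threshold. TBK1 (adjusted p = 0.0433), TLR3 (0.0230) and MAVS lose their call when single libraries are left out. TBK1 loses it without siNT replicate 7 or 9 or any miR-28 replicate of MCF10A, or without siNT replicate 1 or 2 or miR-28 replicate 2 of hTERT RPE-1 (adjusted p of 0.0508 to 0.125), with library totals (0.39, adjusted p = 0.0850) and in 1 fit of all 18 libraries (0.0905). TLR3 loses it without siNT replicate 1 or 2 or miR-28 replicate 2 or 3 of hTERT RPE-1 (0.0543 to 0.0779), and MAVS without siNT replicate 8 or 9 or miR-28 replicate 7 of MCF10A or siNT replicate 1 or miR-28 replicate 2 of hTERT RPE-1 (0.0539 to 0.0873). DHX58 (1.41 ± 0.68, adjusted p = 0.137) and IRF3 (0.47 ± 0.18, adjusted p = 0.0685) did not pass with all libraries and did without miR-28 replicate 1 of hTERT RPE-1 (2.11 with adjusted p = 0.0118 and 0.60 with adjusted p = 0.0183); IRF3 also did without siNT replicate 7 of MCF10A (0.56, adjusted p = 0.0460) and DHX58 with a pseudocount of 5 (1.72, adjusted p = 0.0405).

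For miR-708 the change was larger in hTERT RPE-1 in 4 of the 9 genes and smaller in 1, beside 20.2% and 19.6% of all genes. IFIH1 differed by 2.25 ± 0.65 (adjusted p = 0.0158) and TLR3 by 2.01 ± 0.54 (adjusted p = 0.00820). TBK1 differed by 0.82 ± 0.14 (adjusted p = 1.57e-04), IRF3 by 0.55 ± 0.18 (adjusted p = 0.0219) and MAVS by -0.73 ± 0.14 (adjusted p = 2.75e-04). The call of IRF3 is lost without siNT replicate 8 (adjusted p = 0.0746) or miR-708 replicate 7 (0.0524) of MCF10A and without siNT replicate 3 (0.0592) or miR-708 replicate 3 (0.0528) of hTERT RPE-1. DDX58, DHX58, EIF2AK2 and ADAR did not pass, with intervals of -1.23 to 1.53, -1.90 to 0.93, -0.27 to 1.23 and -0.19 to 0.88. With scaling by library totals the median of all genes moved to 0.15, the share of called genes that were larger in hTERT RPE-1 went from 50.8% to 68.5%, and the same 5 genes of the 9 were called.

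**Figure D4:**
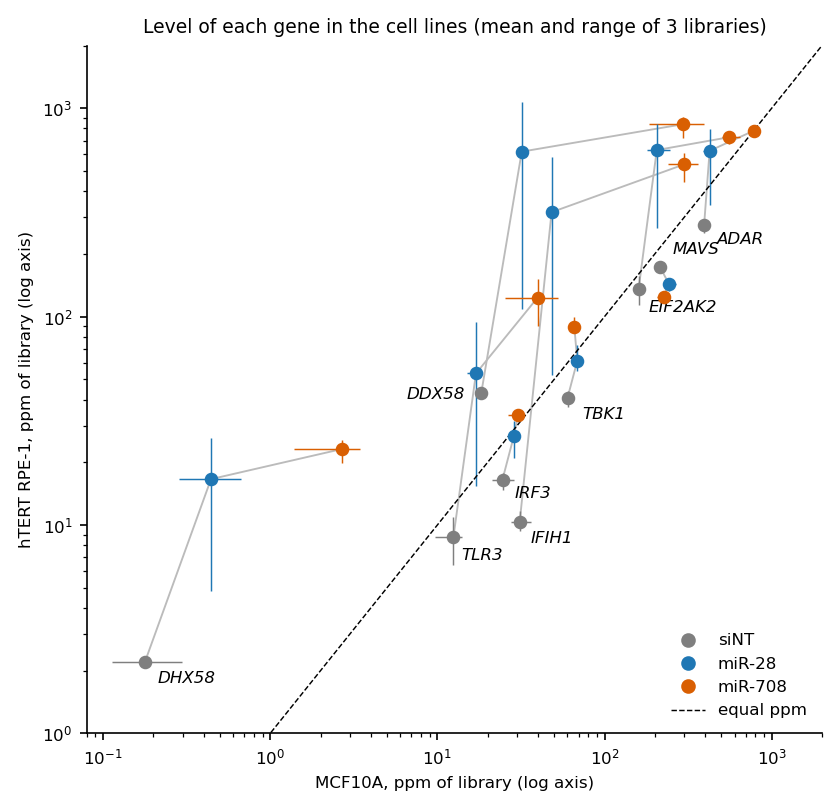
Mean level of each gene in ppm in hTERT RPE-1 against MCF10A on log axes, with the range of 3 libraries in each line; grey lines join siNT, miR-28 and miR-708 of a gene and the dashed line marks equal levels. IFIH1 starts below the dashed line with siNT and ends above it with miR-708, DDX58 and DHX58 stay above it, MAVS stays below it, and ADAR ends on it.

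Set side by side in ppm and without a test, the levels reached with miR-708 were closer between the lines than those with miR-28 for 6 of the 9 genes. For TLR3, among the 6, the ratios hardly differ, at 3.13 with miR-28 and 3.10 with miR-708. The miR-28 means of hTERT RPE-1 include the low replicate 1, for DDX58 at 108.8 ppm against 1072 and 676.5 ppm. ADAR ended at 785 ppm in MCF10A and 781 ppm in hTERT RPE-1, a ratio of 0.995, and EIF2AK2 at 552 and 725 ppm, a ratio of 1.31. DDX58 ended at 296 and 839 ppm, a ratio of 2.83, after 19.4 with miR-28. IFIH1 went from a ratio of 0.333 with siNT to 6.57 with miR-28 and 1.79 with miR-708, the crossing seen in the plot of the levels of the lines. The ratio of MAVS went from 0.812 with siNT to 0.594 and 0.552, below siNT with both mimics, and that of DHX58 from 12.4 to 37.5 and 8.60. Per kb with miR-708 the order in hTERT RPE-1 was DDX58 (181), IFIH1 (150), ADAR (118), EIF2AK2 (72.7), TBK1 (29.6), IRF3 (21.2), TLR3 (20.5), MAVS (10.6) and DHX58 (8.94), so that DDX58 and IFIH1, though not DHX58, stood above the editing enzyme without overlap of libraries. In MCF10A ADAR was still first (119), ahead of IFIH1 (84.0), DDX58 (64.0) and EIF2AK2 (55.3).

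DDX58 served as the reference for likeness of pattern, as Pearson's r over the 18 libraries of log2 ppm minus the siNT mean of the line, across 13339 genes. The genes outside the 10 most like it were IFIT2 (0.996), IFI35 (0.993), IFIT3 (0.992), DDX60L (0.991) and SAMHD1 (0.991). DHX58 (0.981), EIF2AK2 (0.976), ADAR (0.972), IFIH1 (0.957) and TLR3 (0.912) were also close, IRF3 (0.827) and TBK1 (0.712) less so, and MAVS was at -0.54. The points share 6 siNT libraries placed at their own mean and a few libraries of large change, so r describes these libraries and carries no p.

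Genes next to the sensors in the pathway were counted from lists, and the genes named are those of largest change with miR-708. The counts are to be read against the shares over all genes called higher and lower, which were 10.7% and 12% with miR-28 and 15.5% and 17.3% with miR-708 in MCF10A, then 23.3% and 23.5%, and 30.9% and 31.2%, for hTERT RPE-1. Of 33 regulators and signalling partners of the RIG-I-like receptors, 1 was called higher and 4 lower with miR-28 in MCF10A, 6 and 9 with miR-708, and 9 and 8, then 9 and 12, in hTERT RPE-1. The median log2 change of the list was 0.04 with miR-708 in MCF10A and 0.03 in hTERT RPE-1, near that of all genes, and its counts in hTERT RPE-1 are near the shares over all genes. DDX60, a helicase that acts with RIG-I, rose by 4.0 ± 0.19 (adjusted p = 2.96e-07) with miR-708 in MCF10A and 3.34 ± 0.39 (adjusted p = 3.40e-05) in hTERT RPE-1. IRF7, the inducible relative of IRF3, rose from 15–19.2 with siNT to 169–360 with miR-708 in MCF10A and from 32.8–49.7 to 185–329 in hTERT RPE-1. TRIM25, a ubiquitin ligase that activates RIG-I, was lower with miR-28 in MCF10A (-0.34, adjusted p = 0.0302) and higher in the other 3 comparisons with siNT, by 0.50 to 2.41; TRIM14, which binds MAVS, rose by 0.71 and 2.26 with miR-708.

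**Figure D5:**
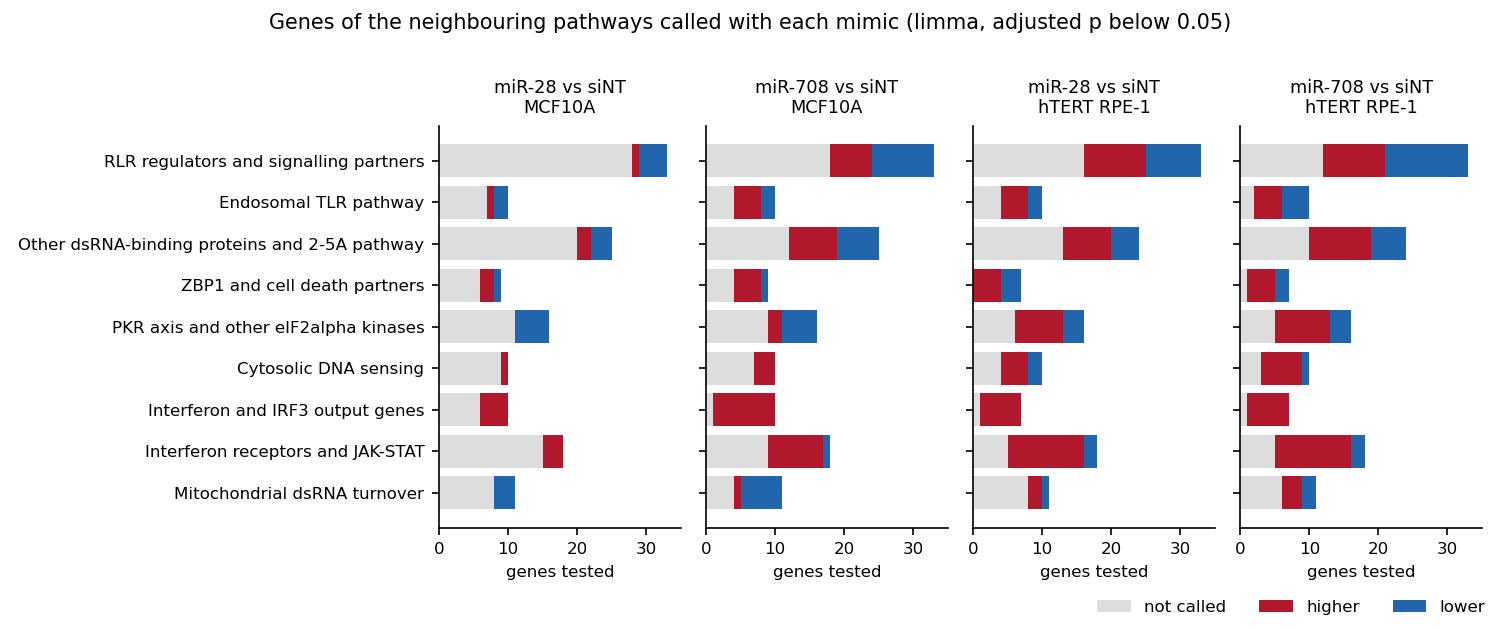
Number of genes tested in each list that were called higher, lower or not called against siNT for each mimic and line. The interferon output list is almost all higher with miR-708 in both lines (9 of 10 and 6 of 7), and the regulators of RIG-I-like receptors are split between higher and lower. Some genes of the interferon output list, and OAS1, OAS2 and TREX1 in hTERT RPE-1, passed the filter on low values only through libraries with a mimic.

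The endosomal Toll-like receptor list held 10 tested genes of 13, since TLR7, TLR8 and TLR9 were not analysed here. With miR-28 and miR-708, 1 and 4 were higher and 2 and 2 lower in MCF10A, and 4 and 4 higher and 2 and 4 lower in hTERT RPE-1, for shares over all genes of 10.7% and 15.5% higher and 12% and 17.3% lower, then 23.3% and 30.9% higher and 23.5% and 31.2% lower. With 10 genes these counts are not set apart from those shares. MYD88, the adaptor of the other endosomal receptors, rose with miR-708 by 1.26 ± 0.10 (adjusted p = 1.06e-05) and 2.14 ± 0.36 (adjusted p = 4.85e-04). IRAK1 rose by 0.32 and 0.91 with miR-708, and IRAK4 by 0.94 in hTERT RPE-1 (0.31 in MCF10A, adjusted p = 0.0544); both are kinases below MYD88. WDFY1, described as an aid of TLR3 signalling, was lower in all 4 comparisons with siNT, by -0.71 to -1.29.

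Other dsRNA-binding proteins and the 2-5A pathway made a list of 26. Of the 25 tested in MCF10A 2 were higher and 3 lower with miR-28, and 7 higher and 6 lower with miR-708. Of the 24 tested in hTERT RPE-1 it was 7 and 4, then 9 and 5. Over all genes 10.7% and 12%, then 15.5% and 17.3%, were called in MCF10A, and 23.3% and 23.5%, then 30.9% and 31.2%, in hTERT RPE-1. The OAS enzymes, which on binding dsRNA make the 2-5A that activates RNase L, lead the list. OAS1 ranged over 510–682 in the siNT libraries of MCF10A, and over 2.94–10.4, at or near the limit of 3 reads, in those of hTERT RPE-1. It fell with miR-28 in MCF10A to 338–456 (-0.70 ± 0.17, adjusted p = 0.0145) and rose with miR-708 to 3232–4794, while in hTERT RPE-1 it reached 483–9352 and 6158–8480. OAS2 went from 51.4–94.6 to 6142–10500 with miR-708 in MCF10A and from 2.03–8.81 to 3526–6250 in hTERT RPE-1. OAS1 and OAS2 passed the filter on low values in hTERT RPE-1 only through libraries with a mimic. Their calls in that line are not independent of the filter. OAS3 rose by 2.45 ± 0.16 and 5.54 ± 0.76 with miR-708, and OASL by 6.35 ± 0.46 in MCF10A, a gene not analysed in hTERT RPE-1.

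ZBP1, the sensor of Z-form nucleic acid, was not analysed here, nor was its partner RIPK3. Of the list of 10 partners in cell death, 9 were tested in MCF10A, with 2 higher and 1 lower with miR-28 and 4 and 1 with miR-708. In hTERT RPE-1 7 were tested, with 4 and 3, then 4 and 2. Over all genes 10.7% and 12%, then 15.5% and 17.3%, were called in MCF10A, and 23.3% and 23.5%, then 30.9% and 31.2%, in hTERT RPE-1. MLKL, the executioner of necroptosis, rose with miR-708 by 0.47 ± 0.13 (adjusted p = 0.0188) and 2.99 ± 0.43 (adjusted p = 1.49e-04). CASP1 rose by 0.70 and 3.0 and CASP8 by 1.08 and 1.42. CASP10 rose by 1.85 in MCF10A.

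The list of the PKR axis, the eIF2alpha kinases with their substrate and targets, held 16 genes, all tested. In MCF10A none was higher and 5 were lower with miR-28, and 2 were higher and 5 lower with miR-708. In hTERT RPE-1 7 and 3, then 8 and 3, were called. Over all genes the shares were 10.7% and 12%, then 15.5% and 17.3%, in MCF10A, and 23.3% and 23.5%, then 30.9% and 31.2%, in hTERT RPE-1. DDIT3, a stress transcription factor, rose with miR-708 by 1.47 ± 0.31 (adjusted p = 0.00405) and 3.09 ± 0.23 (adjusted p = 2.07e-06), and PPP1R15A, whose product directs the phosphatase of eIF2alpha, by 0.98 and 0.97. EIF2S3, the gamma subunit of eIF2, was lower in all 4 comparisons with siNT, by -0.63 to -1.04. DNAJC3, which encodes an inhibitor of PKR, was lower in hTERT RPE-1, by -0.65 and -0.96.

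Output of the pathway was read from a list of 17 genes, interferons and genes downstream of IRF3 or interferon. Of these 10 were tested in MCF10A and 7 in hTERT RPE-1. IFNE was the only interferon gene tested, and none of its changes against siNT passed the test. With miR-28 and miR-708 it changed by 0.27 and -0.12 in MCF10A and by 0.09 and -0.20 in hTERT RPE-1. IFNB1, IFNL1, IFNL2, IFNL3, IFNL4, IFNK and CXCL10 were not analysed here. Counts of higher genes were 4 with miR-28 and 9 with miR-708 in MCF10A and 6 with each in hTERT RPE-1. None was lower. Over all genes 10.7%, 15.5%, 23.3% and 30.9% were called higher in these comparisons with siNT. CXCL11, CCL5 and MX1 in MCF10A and ISG20 in hTERT RPE-1 had every siNT library below 10. They entered the test only through libraries with a mimic, so their calls are not independent of the filter. ISG15 and RSAD2 in MCF10A and MX1 in hTERT RPE-1 also needed libraries with a mimic to pass it. MX1, an antiviral GTPase, went from 7.5–9.13 with siNT to 17.4–56.3 with miR-28 and 3504–5891 with miR-708 in MCF10A, and from 6.04–13.2 to 166–4746 and 2578–4204 in hTERT RPE-1. IFIT1, which binds foreign RNA ends, rose by 7.78 ± 0.33 and 7.02 ± 0.72 with miR-708, ISG20 by 2.28 and 7.02, and RSAD2 by 8.48 in MCF10A. The siNT values behind these were low for ISG20 in hTERT RPE-1 (3.04–9.5) and RSAD2 in MCF10A (5.36–29.9).

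Of 18 genes of interferon receptors and JAK-STAT signalling, 3 were higher and none lower with miR-28 in MCF10A and 8 and 1 with miR-708. With each mimic in hTERT RPE-1 it was 11 and 2. Over all genes 10.7% and 12%, then 15.5% and 17.3%, were called in MCF10A, and 23.3% and 23.5%, then 30.9% and 31.2%, in hTERT RPE-1. IRF9, a transcription factor of the interferon response, rose in all 4 comparisons with siNT, by 0.88 and 2.93 in MCF10A and by 2.26 and 2.48 in hTERT RPE-1. USP18, which damps the interferon receptor, rose with miR-708 by 3.66 ± 0.24 and 6.89 ± 0.74. IFNLR1, a subunit of the type III interferon receptor, rose in hTERT RPE-1 by 1.76 and 2.32, and its MCF10A change with miR-708 was 0.04 (adjusted p = 0.946).

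Markers of blood and immune cells were checked beside these results. In hTERT RPE-1 3 of the 10 were listed and their sum rose from 9.21–13.3 ppm with siNT to 15.3–114 with miR-28 and 168–260 with miR-708, and in MCF10A 5 were listed and summed to 16.8–25.2, 20.9–21.7 and 33.4–43.5 ppm. The rise is that of CD68, a lysosomal protein also made outside the blood, at 317–452 and 4792–7226 with siNT and miR-708 in hTERT RPE-1. PTPRC, the defining marker of blood cells, stayed at 0.196, 0.210 and 0.222 ppm with siNT, miR-28 and miR-708.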

How the data were processed

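RNAseq values of 18 libraries were analysed. Per the labels and the study's methods, the authors aligned reads to hg38 with HISAT2 2.1.0, counted reads over RefSeq transcripts by Partek's E/M method and tested with DESeq2. The deposited signal is the estimated count of a gene after median-of-ratios scaling, in 1 table per line, and no listed gene has a 0 in any library. They also deposited their own fold changes, p-values, FDR and group means, which were not used.

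Values were tested as log2(value + 1) with limma 3.58.1 in R 4.3.3, for genes with at least 10 in at least 3 of 9 libraries, with a trended prior; a fold change on this scale understates that of low genes. Differences between lines used both fits with Welch–Satterthwaite degrees of freedom. Scripts were tested on simulated data. Levels are ppm of the summed values of a library, per kb of MANE Select transcripts (GENCODE 44). Markers, pathway lists and the 10 genes were chosen with earlier results of these data known; up to 4 genes of a list are named, those called with the largest change with miR-708, and 1 gene that this rule named is not reported here.

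Same-numbered libraries deviated together in MCF10A between each mimic and siNT (r of 0.11 to 0.30) and in hTERT RPE-1 between the mimics, so there the numbers pair them. Other alternatives were another pseudocount, no filter, library totals, no trend, fewer groups and each library left out. Python 3.11.15 was used for tables and matplotlib 3.10.9 for figures. Counting limits cover counting error only.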

Additional observations from a re-analysis of the deposited data

Results flagged for a closer look

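The response of 12 pairs of gene and mimic differed between the lines by the test of the difference itself, given as log2 change in hTERT RPE-1 minus that in MCF10A. With miR-28 these were DDX58 (2.53), IFIH1 (3.75), TLR3 (1.84), EIF2AK2 (1.74), ADAR (1.02), TBK1 (0.41) and MAVS (-0.43). With miR-708 they were IFIH1 (2.25), TLR3 (2.01), TBK1 (0.82), IRF3 (0.55) and MAVS (-0.73). IFIH1, TLR3 and TBK1 changed more in hTERT RPE-1 with both mimics and MAVS went lower there with both. Over all genes 12.1% and 11.3% were called higher and lower in this difference with miR-28, and 20.2% and 19.6% with miR-708. The miR-28 calls of TLR3, TBK1 and MAVS are lost when single libraries are left out (adjusted p up to 0.0779, 0.125 and 0.0873). So is the miR-708 call of IRF3 (up to 0.0746).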

How the results depend on the processing

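The counts of the 9 genes called against siNT kept at 6 with miR-708 in MCF10A and at 9 with both mimics in hTERT RPE-1 under all alternatives, and the siNT ratios between the lines moved by less than the spread between replicates without ribosomal RNA and mitochondrially encoded genes. For miR-708 against miR-28 in MCF10A the count of 6 went to 4 without a trend and ranged from 4 to 6 with single libraries left out. With miR-28 in MCF10A the count of 2 went to 0 without a trend and ranged from 0 to 2 with single libraries left out. For miR-708 against miR-28 in hTERT RPE-1 the count of 1 went to 2 with library totals (MAVS lost, TLR3 and TBK1 gained) and to 2 with the replicate block, and ranged from 1 to 4 with single libraries left out, 4 without miR-28 replicate 2. For the miR-28 difference between the lines 7 went to 4 without a trend and ranged from 4 to 9 with single libraries left out. The cause of these moves was not tested.

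Directions turned only where the change had not passed the test. With library totals the miR-28 change of ADAR in MCF10A was 0.11 and the miR-708 changes of MAVS and TBK1 were 0.0727 and 0.1341; with a pseudocount of 5 the miR-708 difference of DHX58 between the lines was 0.16. With single libraries left out, MCF10A changes ranged from -0.0631 to 0.0661 (ADAR, miR-28), -0.0069 to 0.1361 (MAVS, miR-28), -0.12 to 0.0006 (MAVS, miR-708), -0.0436 to 0.0174 (TBK1, miR-708) and -0.0082 to 0.1229 (IRF3, miR-708 against miR-28), and the DDX58 difference between the lines for miR-708 from -0.14 to 0.38. For miR-708 against miR-28 in hTERT RPE-1 the ranges were -0.23 to 1.37 (DDX58), -0.14 to 1.03 (DHX58), -0.36 to 0.41 (EIF2AK2), -0.17 to 0.38 (ADAR) and -0.0047 to 0.23 (IRF3).

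The replicate block also brought the miR-28 difference of IRF3 between the lines past the threshold (0.47, adjusted p = 0.0486) and changed no other call of the 9 genes beside that of TLR3 between the mimics; over all genes it moved the calls of miR-708 against miR-28 in MCF10A from 228 to 643. Depth limits genes whose siNT values reach down to about 3 reads or fewer. Among them are DHX58, CXCL11 and CCL5 in MCF10A and OAS1, OAS2 and ISG20 in hTERT RPE-1. MX1 is also low with siNT, at 7.5–9.13 in MCF10A and 6.04–13.2 in hTERT RPE-1.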

Other observations

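Genes of cytosolic DNA sensing, the sister route to TBK1 and IRF3, were counted from a list of 12. Of the 10 tested in each line 1 was higher and none lower with miR-28 in MCF10A, 3 and 0 with miR-708, and 4 and 2, then 6 and 1, in hTERT RPE-1, to be read against the shares over all genes given with the next list. SAMHD1, a dNTP hydrolase, rose with miR-708 by 3.07 ± 0.14 (adjusted p = 1.96e-07) in MCF10A and 3.8 ± 0.57 (adjusted p = 1.94e-04) in hTERT RPE-1. IFI16, a DNA sensor, rose by 0.54 and 3.07. RNASEH2A and TREX1, nucleases that clear self nucleic acid, rose in hTERT RPE-1 by 1.82 and 3.97. The TREX1 change has an SE of 1.07, and its siNT values ranged from 0.436 in 1 library to 30.6. TREX1 needed libraries with a mimic to pass the filter on low values and was not analysed in MCF10A.

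Mitochondria make dsRNA from both strands of their genome, and 11 genes of its synthesis and turnover were tested. In MCF10A none was higher and 3 lower with miR-28, and 1 was higher and 6 lower with miR-708, while in hTERT RPE-1 2 and 1, then 3 and 2, were called; over all genes 10.7% and 12%, then 15.5% and 17.3%, were called in MCF10A, and 23.3% and 23.5%, then 30.9% and 31.2%, in hTERT RPE-1. PNPT1, the exoribonuclease that degrades mitochondrial dsRNA, rose with miR-708 by 0.58 ± 0.09 (adjusted p = 7.36e-04) in MCF10A and 2.85 ± 0.45 (adjusted p = 2.69e-04) in hTERT RPE-1. TFAM, which packages mitochondrial DNA, went from 3372–3589 with siNT to 2321–3224 with miR-708 in MCF10A and from 945–1152 to 1864–2184 in hTERT RPE-1. POLRMT, the mitochondrial RNA polymerase, was lower in MCF10A (-0.68, adjusted p = 0.00582), and FASTK, a protein of mitochondrial RNA processing, in hTERT RPE-1 (-1.28, adjusted p = 1.76e-05).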
